A study of Mus musculus with 4 samples.

Results

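Negative feedback on fibroblast growth factor (FGF) signalling was examined through 10 genes taken by symbol from a table of 25239 genes. They were the MAP kinase phosphatase genes Dusp4, Dusp5 and Dusp6, the Sprouty genes Spry1, Spry2 and Spry4, the Spred genes Spred1, Spred2 and Spred3, and Il17rd, which encodes the membrane protein also known as Sef. All 10 were listed and all 10 passed the filter on low counts, which left 14610 genes for testing. RNA had been sequenced from hindlimb bud cells of FVB mouse embryos at embryonic day 11.5. Every embryo group carried the same reporter at the H11 safe-harbour locus, labelled hsp68-hZRS(404G>A)-mCherry, a red fluorescent protein gene under a human copy of the ZRS, the limb enhancer of Shh, altered by 404G>A, and the genotype was otherwise labelled wild-type. The anterior population was dissected from the anterior bud and sorted as mCherry-positive, and the central population was dissected from the central bud and sorted as mCherry-negative, with 2 libraries of each. Position in the bud and reporter activity differ together between these groups and cannot be told apart. The labels do not say whether the libraries came from separate embryos, so p-values measure only the spread between these libraries, which may be technical.

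FGF ligands bind receptor tyrosine kinases and activate ERK through Ras, Raf and MEK. ERK signalling in turn induces its own inhibitors: Sprouty and Spred proteins restrain the steps from the receptor to Raf, the phosphatases remove the activating phosphates from ERK, and Il17rd acts at the receptor and at the step from MEK to ERK. In the limb bud, FGFs from the apical ectodermal ridge signal to the mesenchyme beneath, where Dusp6, the Sprouty genes and the ETS genes Etv4 and Etv5 are commonly used as readouts of the pathway.

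The libraries held between 30080925 and 33257383 counts. Of the counts from 1 to 10, between 72.8% and 75.6% were even numbers, so counts may overstate the number of sequenced fragments. Chi-square per degree of freedom, on halved counts, was 15.1 between the anterior libraries and 8.52 between the central ones, which is more than sampling noise, so no pair was merged as a library deposited again. Of 8 limb mesenchyme genes, Prrx1, Tbx4 and Pitx1 stood at 225 CPM or more in every library (CPM: counts per 1 M counts, scaled by TMM) and were not called. The other 5 were called: Msx1, Prrx2 and Twist1 were higher in anterior cells (log2 fold changes 3.26, 1.91 and 0.83) and Twist2 and Pdgfra were lower (-1.45 and -1.17).

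Feedback inhibitor expression was higher in anterior than in central cells for most of the genes. In edgeR's quasi-likelihood test, 8 of the 10 were called higher in anterior cells at an adjusted p-value under 0.05 and 0 were called lower, while over all tested genes 10.7% were called higher and 12.3% lower (22.9% either way). The median log2 fold change of the 10 genes was 0.65, with quartiles of 0.39 and 1.34, and over all tested genes it was -0.01, with quartiles of -0.29 and 0.18. For those 8 genes both anterior libraries lay above both central libraries, which held for 30.8% of all tested genes, and for 1 of the 10, Spred3, both lay below, which held for 32.6%. Dusp4 and Spred3 were not called. Of the 10 genes, 4 (Spry1, Spry4, Dusp6 and Il17rd) were called and at least 2-fold higher in anterior cells, against 2.34% of all tested genes in that direction. The same 4 passed a test against a change of 1.5-fold, as did 7.08% of all tested genes in either direction. Without anterior replicate 2, Spry2 and Spred2 were no longer called (adjusted p-values 0.0732 and 0.107, in ranges of 0.00106 to 0.0732 and 0.000409 to 0.107 over the alternatives), leaving 6 of 10, with 13.1% of all tested genes called either way. These are bulk libraries, in which fewer cells of a type and less RNA per cell cannot be told apart.

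**Figure D1:**
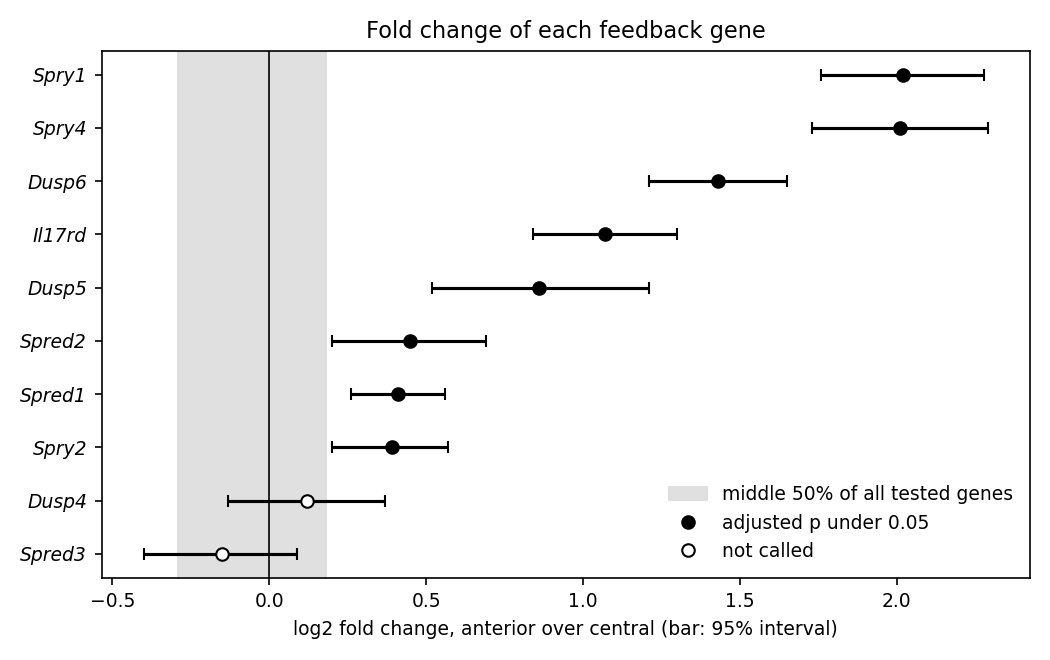
Log2 fold change of each feedback gene, anterior over central, with its 95% interval from the edgeR fit (2 libraries per population). Filled points passed an adjusted p-value of 0.05, and the grey band spans the middle 50% of all tested genes, from -0.29 to 0.18. Spry1 and Spry4 lie farthest right, at 2.02 and 2.01, and the intervals of Dusp4 and Spred3 include 0.

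The phosphatase Dusp6, which acts on ERK in the cytoplasm, was the most abundant of the 10. Its level was 536 and 656 CPM in the anterior libraries, against 212 and 230 CPM in the central ones. The populations did not overlap, and the lower anterior library stood well above the higher central one. The change was 2.69-fold (log2 fold change 1.43 ± 0.10 SE, adjusted p-value 2.33e-05). Dusp6 lies on chr10:99263231-99267489 (GRCm38, plus strand) and its longest transcript has 3 exons.

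Dusp5, an inducible nuclear phosphatase of ERK, was also higher in anterior cells but far less abundant. It measured 19.5 and 18.5 CPM in the anterior libraries against 9.45 and 11.5 CPM in the central ones. The populations did not overlap. The difference was 1.82-fold (log2 fold change 0.86 ± 0.15 SE, adjusted p-value 0.00424). Dusp5 lies on chr19:53529109-53542431 (plus strand, 4 exons), and an annotated antisense gene covers 22.1% of its exon bases. The strand setting of the counting is not given in the sources used here, so reads of the pair cannot be told apart.

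Dusp4, a nuclear phosphatase that acts on ERK and other MAP kinases, had overlapping values. It stood at 50 and 51.5 CPM in the anterior libraries, against 41.9 and 51.6 CPM in the central ones. Central replicate 2 was as high as the anterior libraries, and central replicate 1 was lower. The log2 fold change of 0.12 ± 0.11 (SE) was not called (adjusted p-value 0.482), and its 95% interval ran from 0.916-fold to 1.29-fold, which leaves out changes as large as that of Dusp6. Without central replicate 1 the estimate was -0.02. Dusp4 lies on chr8:34807297-34819894 (plus strand, 4 exons).

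The Sprouty genes encode membrane-recruited inhibitors of receptor tyrosine kinase signalling, and they held both the largest and the smallest called change among the 10 genes. Spry1 measured 128 and 163 CPM in the anterior libraries, against 35.9 and 35.7 CPM in the central ones. The central libraries were nearly identical, and both anterior ones stood far above them. Its 4.06-fold difference (log2 fold change 2.02 ± 0.11 SE, adjusted p-value 8.19e-06) put it at the 98.8 percentile of the log2 fold changes of all tested genes. Spry1 lies on chr3:37639947-37644598 (plus strand, 2 exons in its longest transcript), and 24.4% of its exon bases lie under an annotated gene on the opposite strand.

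Spry4 changed by nearly the same amount. It stood at 146 and 170 CPM in the anterior libraries, against 34.5 and 44.1 CPM in the central ones, with no overlap. The difference was 4.02-fold (log2 fold change 2.01 ± 0.12 SE, adjusted p-value 1.22e-05). Its 95% interval, from 3.31-fold to 4.88-fold, and that of Spry1, from 3.39-fold to 4.85-fold, cover nearly the same range. Spry4 is on chromosome 18, on the minus strand, with 2 exons.

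Spry2 differed much less than its relatives. Its level was 88.3 and 95.6 CPM in the anterior libraries against 72.8 and 67.8 CPM in the central ones. The populations did not overlap, although the gap between them was small. The change was 1.31-fold (log2 fold change 0.39 ± 0.08 SE, adjusted p-value 0.00923), with a 95% interval of 1.15-fold to 1.48-fold that lies wholly below those of Spry1 and Spry4. As given above, this call was lost without anterior replicate 2 (adjusted p-value 0.0732). Spry2 lies on chr14:105891947-105896819 (minus strand, 2 exons).

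**Figure D2:**
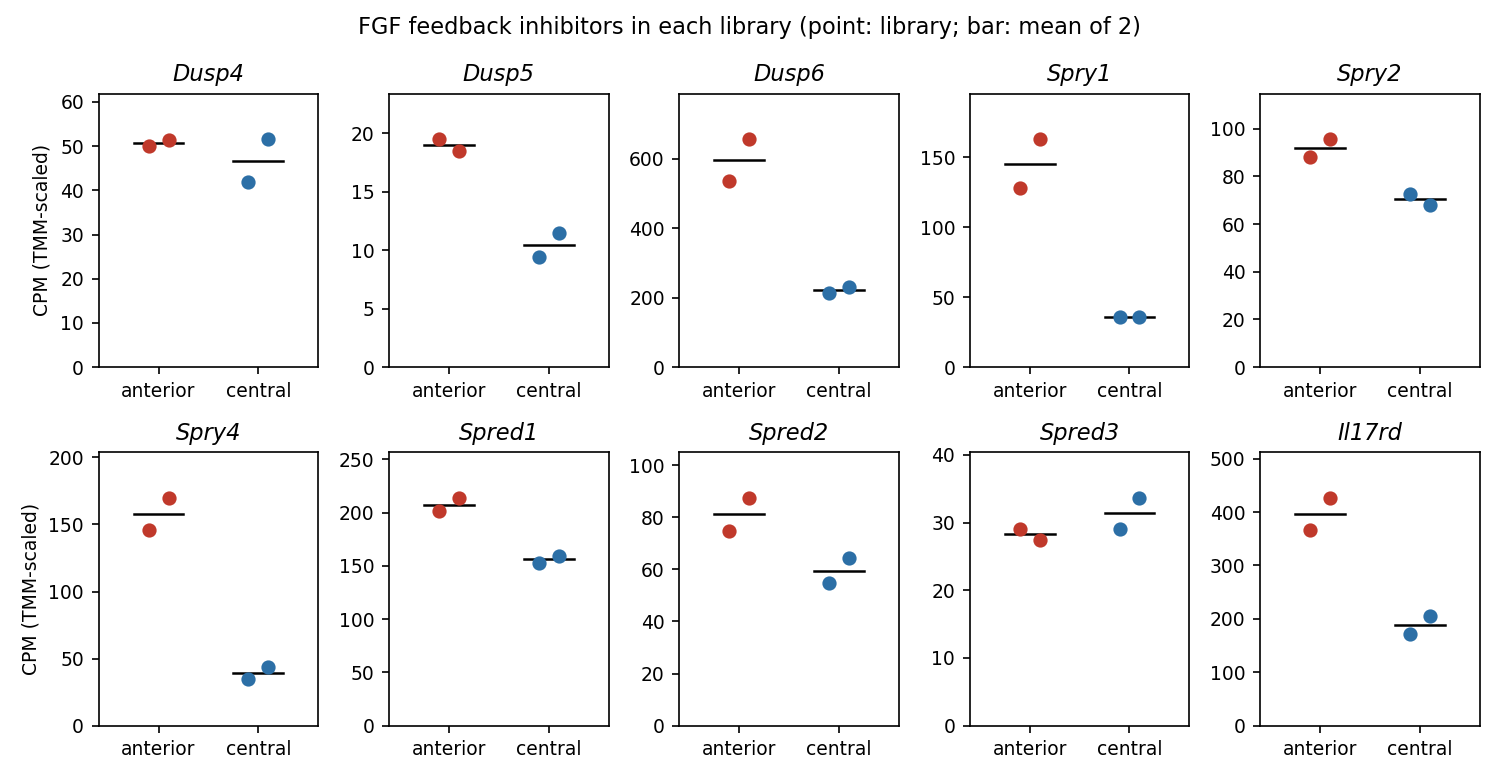
CPM of the 10 genes in each of the 4 libraries, with a separate linear axis from 0 for each gene (red, anterior; blue, central; bar, mean of 2 libraries). The populations are far apart for Dusp6, Spry1, Spry4 and Il17rd, close for Spry2, Spred1 and Spred2, and overlapping for Dusp4.

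Spred proteins share the cysteine-rich Sprouty domain and recruit the Ras GTPase-activating protein neurofibromin to the membrane. Spred1 measured 201 and 214 CPM in the anterior libraries, against 153 and 159 CPM in the central ones, and Spred2 measured 74.6 and 87.5 against 54.8 and 64.2 CPM. Neither gene had overlapping populations. The differences were 1.33-fold for Spred1 (log2 fold change 0.41 ± 0.07 SE, adjusted p-value 0.00275) and 1.36-fold for Spred2 (0.45 ± 0.11 SE, adjusted p-value 0.018, or 0.107 without anterior replicate 2). Spred3 went the other way in its estimate, at 29.1 and 27.5 CPM in the anterior libraries against 29.1 and 33.7 CPM in the central ones, and the nearest libraries of the populations were equal to 3 digits. It was not called (log2 fold change -0.15 ± 0.11 SE, adjusted p-value 0.363), with a 95% interval of 0.759-fold to 1.07-fold that does not reach the estimates of Spred1 and Spred2. Spred1 lies on chr2:117121374-117182279 and Spred2 on chr11:19924375-20024026, both on the plus strand with 7 exons. Spred3 lies on chr7:29158829-29170411 (minus strand, 6 exons), and 3.25% of its exon bases are shared with Ggn on the opposite strand.

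Il17rd, a single-pass membrane protein of the interleukin-17 receptor family that inhibits FGF signalling, was the second most abundant of the 10 by CPM. It measured 367 and 427 CPM in the anterior libraries, against 172 and 205 CPM in the central ones. The populations did not overlap. The change was 2.11-fold (log2 fold change 1.07 ± 0.10 SE, adjusted p-value 0.000136). Il17rd lies on chr14:27038941-27107286 (plus strand, 13 exons).

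Promoter sequence was compared for the genes that moved by different amounts. RefSeq windows (GRCm38.p6) matched 8 of the 10 genes, all but Dusp4 and Spry4, and the 250 bases before each start were searched on both strands. The windows of Dusp6, Spry2 and Spred1, which rose by a large and by small amounts and overlap no annotated exon, are printed 5′ to 3′ on the gene's strand. Capitals mark AGGAAG (the core bound by ETS factors of the PEA3 group), GGGCGG (the GC box) and CCAAT, or their reverse complements.
Dusp6, chr10:99262981-99263230, plus strand: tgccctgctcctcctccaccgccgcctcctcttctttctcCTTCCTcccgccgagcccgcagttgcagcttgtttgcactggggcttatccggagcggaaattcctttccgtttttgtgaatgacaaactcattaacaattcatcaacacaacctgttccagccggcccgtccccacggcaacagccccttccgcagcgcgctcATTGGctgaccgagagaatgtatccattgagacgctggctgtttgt
Spry2, chr14:105896820-105897069, minus strand: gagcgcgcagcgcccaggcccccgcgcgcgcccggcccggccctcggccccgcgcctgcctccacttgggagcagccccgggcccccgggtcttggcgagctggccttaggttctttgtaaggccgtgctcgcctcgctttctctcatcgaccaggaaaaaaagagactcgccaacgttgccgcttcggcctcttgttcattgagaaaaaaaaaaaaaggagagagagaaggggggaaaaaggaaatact
Spred1, chr2:117120821-117121070, plus strand: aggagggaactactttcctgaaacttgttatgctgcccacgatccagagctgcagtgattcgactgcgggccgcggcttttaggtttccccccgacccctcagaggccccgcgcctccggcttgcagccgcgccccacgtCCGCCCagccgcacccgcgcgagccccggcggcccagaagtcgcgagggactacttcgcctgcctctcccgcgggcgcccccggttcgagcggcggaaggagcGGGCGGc
The Dusp6 window holds an AGGAAG match, a core for the PEA3 group to which Etv4 and Etv5 belong, 210 to 205 bases before the start, and a CCAAT match 46 to 42 bases before it. The Spred1 window holds the GC box at 2 places, and the Spry2 window holds none of the 3 motifs. Over the 8 genes with a window, AGGAAG was in 3 (Dusp5, Dusp6 and Spred2) against 29.5% of all 32851 windows, the GC box in 6 against 32.7%, and CCAAT in 3 against 33.8%. AGGAAG did not follow the size of the change, as Spred2, at 1.36-fold, held it and Spry1, at 4.06-fold, did not. The G and C content of the 8 windows ran from 54.4% (Il17rd) to 70.8% (Spred1). Over all windows the median was 52.4%, with quartiles of 45.2% and 61.2%. The windows of Il17rd, Spred3, Spred2 and Dusp6 lay between these quartiles and the others above them. The windows of Dusp5, Il17rd, Spred2 and Spry1 overlap annotated exons. The ETS sequence CCGGAA was in 0 of 8 windows against 12.0% of all, and its longer form CCGGAAGT was in 0 against 2.88%. The cyclic AMP response element TGACGTCA was in 0 of 8 windows against 1.55%, the AP-1 sequence TGANTCA in 0 against 6.75%, and the TATA box TATAAA in 0 against 12.4%. The first bases of the response element alone, TGACG, were in 2 windows (Dusp5 and Spred2) against 17.8%. These matches describe the letters in a short window and no binding was measured.

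Levels of different genes were compared per length, as FPKM (CPM per kilobase of the gene's merged exons). Dusp6 stood first in both populations, at 190 ± 27.3 FPKM in anterior and 70.6 ± 3.97 FPKM in central cells (SD, n = 2). In anterior cells it was followed by Spry1 at 50 ± 8.43 and Spry2 at 44.0 ± 2.48 FPKM, whose libraries overlapped, and then by Il17rd at 36.1, Spry4 at 33.3 and Spred1 at 30.6 FPKM, each overlapping the next. Below these were Dusp4 at 18.5 and Spred2 at 17.5 FPKM, which overlapped, Dusp5 at 7.69 and Spred3 at 4.55 FPKM. In central cells the second place was held by Spry2 at 33.7 ± 1.69 FPKM and the third by Spred1 at 23.0 ± 0.642 FPKM. Il17rd and Dusp4, both at 17.1 FPKM, overlapped there, as did Spred2 at 12.9 and Spry1 at 12.3 FPKM. Spry4 at 8.26, Spred3 at 5.05 and Dusp5 at 4.23 FPKM were the lowest, with no overlap between neighbours. Spry1 thus stood second in anterior and seventh in central cells.

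The shares of the genes within the Sprouty family were apart in the populations, in a design too small for a test of shares to pass. Its summed level was 117 and 137 FPKM in the anterior libraries, against 54.5 and 54.0 FPKM in the central ones. Spry2 supplied 36.1% and 33.3% of that sum in the anterior libraries, against 64.0% and 60.1% in the central ones. The share of Spry1 was 37.6% and 40.7% against 22.7% in both central libraries, and that of Spry4 was 26.3% and 26.0% against 13.3% and 17.2%. For each of the 3 shares the populations did not overlap, and the exact permutation test over libraries gave p = 0.333 (two-sided), the smallest value that 2 against 2 libraries allow. Spry3, kept out of this sum, was rare at 2.7 and 2.73 CPM in the anterior libraries, against 6.07 and 4.76 CPM in the central ones. Unlike the other Sprouty genes it was called lower in anterior cells by the edgeR test (log2 fold change -1 ± 0.27 SE, adjusted p-value 0.0291).

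Among the phosphatases the sum was 197 and 236 FPKM in the anterior libraries, against 86.9 and 96.9 FPKM in the central ones. Dusp6 made up 86.7% and 88.9% of it in anterior and 78.0% and 75.8% in central libraries, while Dusp4 made up 9.26% and 7.97% in anterior and 17.6% and 19.4% in central libraries. These shares did not overlap (exact permutation p = 0.333, two-sided). Summed Spred levels were closer, at 50.4 and 55.0 FPKM in anterior and 39.1 and 42.8 FPKM in central libraries. Shares of Spred1 (58.7% and 57.5% against 57.7% and 54.9%) and Spred2 (32.0% and 34.5% against 30.3% and 32.5%) overlapped between the populations. The Spred3 share, at 9.26% and 8.04% against 12.0% and 12.7%, did not (exact permutation p = 0.333, two-sided).

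**Figure D3:**
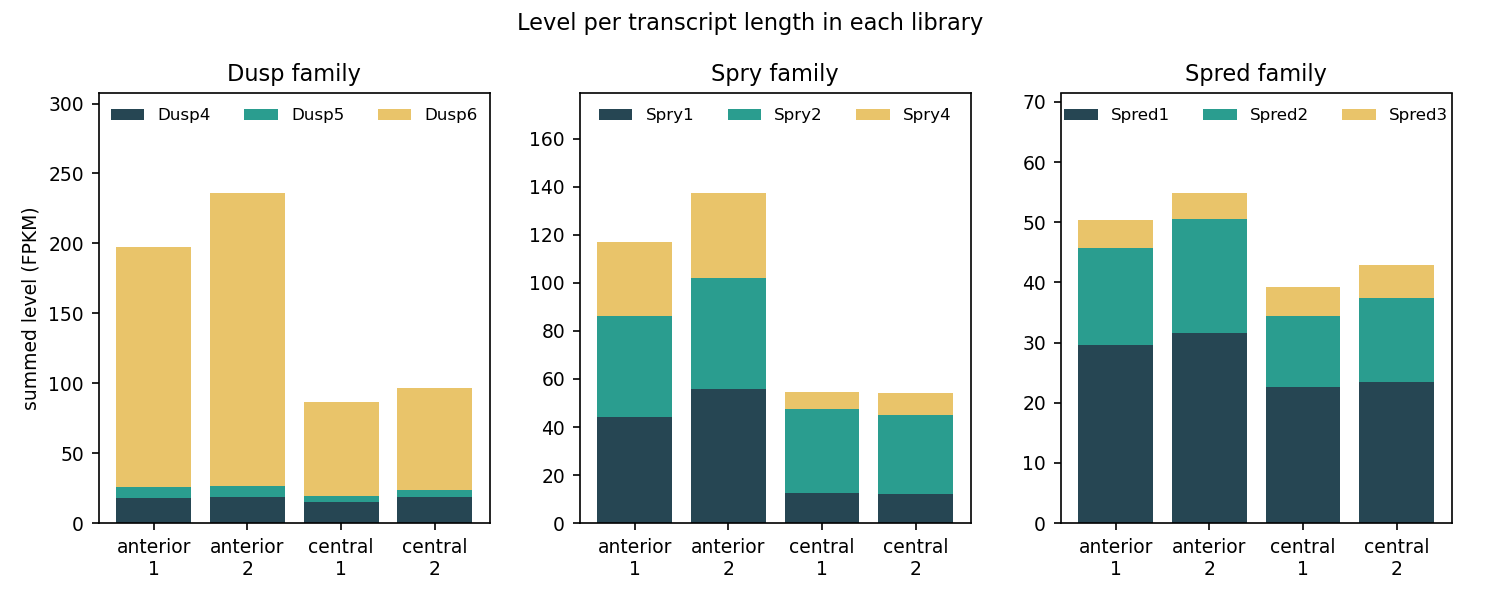
Summed FPKM of the Dusp, Spry and Spred genes in each library, stacked by gene on separate linear axes. Dusp6 fills most of every Dusp bar, and Spry2 holds over 60% of the Spry bars in central libraries but at most 36.1% in anterior ones.

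The feedback genes also varied between libraries of the same population. The median SD of log2 CPM between replicate libraries was 0.15 for the feedback genes and 0.095 for all tested genes. Anterior replicate 2 was above anterior replicate 1 for 8 of the 10 genes, with a median log2 difference of 0.16, where 49.9% of all tested genes were above. Central replicate 2 was above central replicate 1 for 8 of the 10 as well, with a median log2 difference of 0.22, against 49.4% of all tested genes. Primitive red cell genes also differed between the anterior libraries, at a summed 3290 CPM in anterior replicate 1 and 8380 CPM in anterior replicate 2. The part of red cells in the difference between replicates was not tested. With red cell genes and the ribosomal RNA precursor Rn45s removed, the same 8 genes were called. That removal leaves the counts of the feedback genes as they were, so it cannot show whether red cells contributed to them.

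Other components of the pathway were called in both directions. Of 67 other genes in 8 lists of FGF and ERK components, 61 were tested, 11 were called higher in anterior cells, 16 were called lower and 34 were not called (10.7% and 12.3% of all tested genes were called higher and lower). The lists were chosen with results of these data known.

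FGF ligands were mostly lower in anterior cells (median log2 fold change -2). Of 7 tested ligands, 4 were called lower and 1 higher (12.3% and 10.7% of all tested genes). Fgf9 measured 0.390 and 0.273 CPM in the anterior libraries against 12.6 and 13.3 CPM in the central ones (log2 fold change -5.26 ± 0.29 SE, adjusted p-value 7.24e-06). Fgf18 measured 2.25 and 2.39 against 20.2 and 23.3 CPM (-3.23 ± 0.18 SE, adjusted p-value 7.63e-06). Fgf8, the main ridge ligand, and Fgf10, the mesenchymal ligand that maintains the ridge, were singled out after their values were seen. Fgf8 was at 0.240 and 0.0682 CPM against 5.75 and 29.2 CPM (adjusted p-value 0.0012), and Fgf10 was the ligand called higher, at 70.9 and 63.8 against 28.7 and 24.5 CPM (log2 fold change 1.34 ± 0.11 SE, with an adjusted p-value of 5.17e-05). Surface ectoderm markers were also lower in anterior libraries, at a summed 10.6 to 10.9 CPM. They stood at 55.6 CPM in central replicate 1 and 176 CPM in central replicate 2. Among the ligands called lower, Fgf8 rose strongly in that order, as did Fgf17 (1.1 and 3 CPM), named after its values were seen. Fgf9 (12.6 and 13.3 CPM) and Fgf18 (20.2 and 23.3 CPM) differed little between the central libraries. The part of ectoderm in the ligand differences was not tested.

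Receptors and co-receptors were called lower in 5 of 7 tested genes and higher in 1 (12.3% and 10.7% of all tested genes). Their median log2 fold change was -0.63. Fgfr1, the main receptor of limb mesenchyme, stood at 342 and 345 CPM in anterior and 472 and 493 CPM in central libraries (log2 fold change -0.49 ± 0.06 SE, adjusted p-value 0.000696). Gpc3, a heparan sulphate proteoglycan of the cell surface, stood at 663 and 619 against 1150 and 1070 CPM (-0.79 ± 0.07 SE, adjusted p-value 9.37e-05). Larger drops were those of Fgfr2 and Fgfr4, named after their values were seen. Their log2 fold changes were -2.14 and -3.36 (edgeR adjusted p-values 0.00107 and 0.00131). The part of other cell types in the receptor differences was not tested.

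Most genes of the core relay were not called, as was the case over all tested genes, of which 22.9% were called either way. Of the 9 adaptors and exchange factors, 7 were not called, Shc1 was called higher (log2 fold change 0.24 ± 0.07 SE, adjusted p-value 0.0345) and Gab1 lower (-0.44 ± 0.10 SE, adjusted p-value 0.0177). Among the 10 genes for Ras, Raf, MEK and ERK, 9 were not called, and Nras was called higher (0.31 ± 0.07 SE, adjusted p-value 0.0117).

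Other MAP kinase phosphatases were called higher in 2 of 7 genes and lower in 1 (10.7% and 12.3% of all tested genes). Those higher were the relatives of Dusp6 that act on ERK in the cytoplasm. Dusp7 measured 261 and 270 CPM against 168 and 176 CPM (log2 fold change 0.62 ± 0.06 SE, with an adjusted p-value of 0.000212), and Dusp9 measured 170 and 172 against 116 and 130 CPM (0.48 ± 0.07 SE, adjusted p-value 0.00236). The inducible nuclear phosphatase Dusp1, named after its values were seen, was at 49.1 and 48.7 against 44.5 and 48.0 CPM (adjusted p-value 0.55). Dusp10, a phosphatase of JNK and p38 also named after its values were seen, was the one called lower (-1.27 ± 0.34 SE, adjusted p-value 0.0282).

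Further regulators of the pathway were called in both directions. Of 8 tested genes, 3 were called lower and 1 higher (12.3% and 10.7% of all tested genes). The number called higher was 3 by the DESeq2 Wald test and 2 with the replicate block. Flrt3, a transmembrane protein that interacts with FGF receptors, was lower, at 70.3 and 66.3 against 97.3 and 123 CPM (log2 fold change -0.69 ± 0.11 SE, with an adjusted p-value of 0.00262). Pea15a, which holds ERK in the cytoplasm, was lower as well, at 50 and 56.6 against 68.8 and 79.0 CPM (-0.47 ± 0.10 SE, adjusted p-value 0.0099).

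Genes for transcription factors and other products that ERK signalling induces split in direction. Of 8 tested genes, 3 were called higher and 2 lower (10.7% and 12.3% of all tested genes). The PEA3-group ETS genes were the ones higher: Etv4 at 131 and 130 CPM against 47.0 and 46.2 CPM, Etv5 at 227 and 249 against 90.5 and 99.2 CPM, and their relative Etv1 at 17.6 and 15.2 against 10.9 and 10.3 CPM. Their log2 fold changes of 1.48, 1.33 and 0.63 lie within the range of the called feedback genes. Egr1, an immediate early factor, was lower, at 39.4 and 28.9 against 147 and 71.7 CPM (log2 fold change -1.68 ± 0.29 SE, with an adjusted p-value of 0.00399), and Myc was lower, at 9.62 and 7.02 against 29.6 CPM in both central libraries (-1.83 ± 0.16 SE, adjusted p-value 9.69e-05). Egr1 also belongs to a list of 12 genes induced by tissue dissociation. Of these, 4 were called lower and 1 higher (12.3% and 10.7% of all tested genes). Jun and Btg2 of that list had log2 fold changes of -1.29 and -1.04 (adjusted p-values 0.000372 and 0.000789). Atf3, named after its values were seen, was the gene of that list called higher (1.55 ± 0.44 SE, edgeR adjusted p-value 0.0349). The part of dissociation in these differences was not tested.

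**Figure D4:**
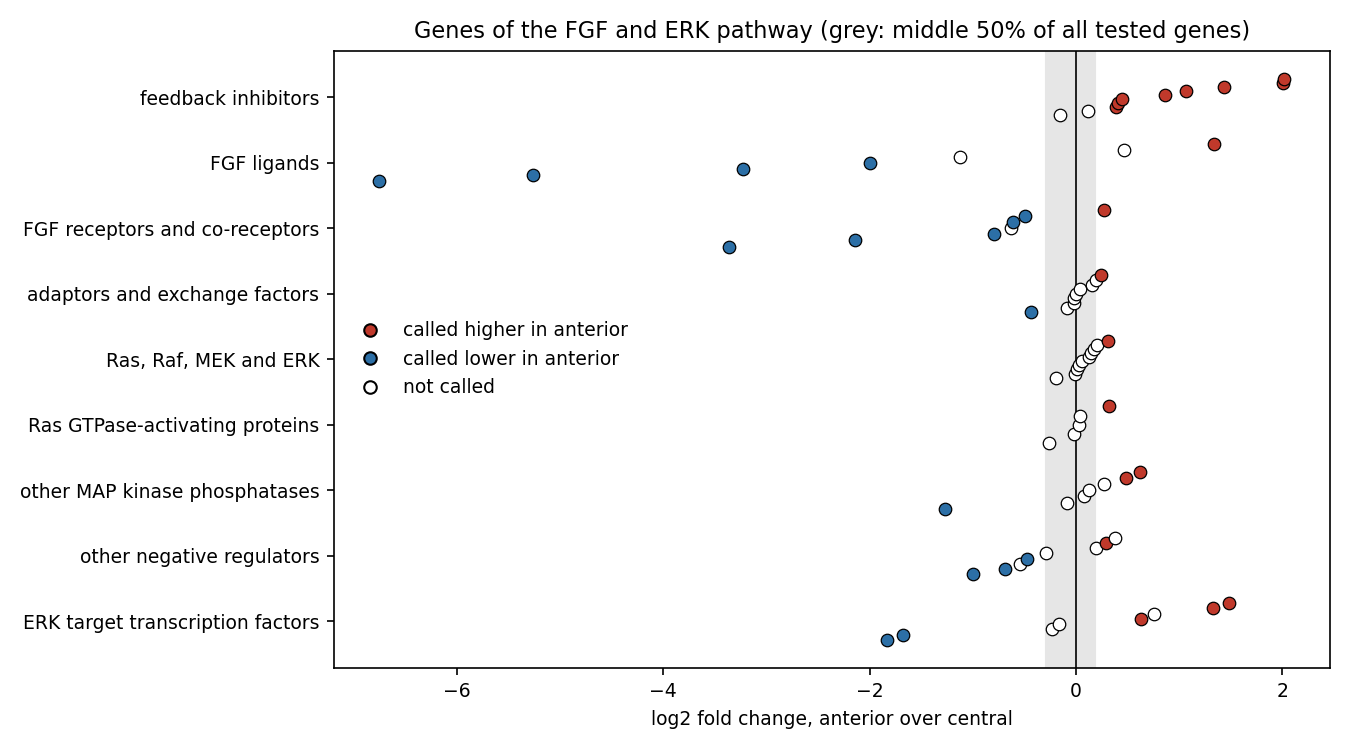
Log2 fold change, anterior over central, of the tested genes of the FGF and ERK pathway by role, each point a gene (red, called higher; blue, called lower; white, not called; grey band, middle 50% of all tested genes). The feedback genes extend to 2.02 on the right, FGF ligands extend to -6.75 on the left, and the Ras, Raf, MEK and ERK genes lie close to 0.

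Markers of several other cell types differed between the populations. Over all tested genes, 12.3% were called lower in anterior cells and 10.7% higher. Both anterior libraries lay below both central ones for 32.6% of them. Surface ectoderm genes were called lower for 10 of 12 (both anterior libraries lay below both central ones for all 12), with a summed level of 10.6 to 10.9 CPM in anterior and 55.6 to 176 CPM in central libraries. Myogenic genes were called lower in 8 of 8 (9.61 to 18.6 against 216 to 238 CPM), with Pax7 and Myog at 0 in both anterior libraries. Endothelial genes were called lower in 6 of 10 (16.4 to 22.0 against 42.6 to 53.7 CPM), cartilage precursor genes in 5 of 7 tested (382 to 510 against 1300 to 1640 CPM) and glial genes in 2 of 3 tested (5.66 to 6.42 against 20.0 to 25.6 CPM). Macrophage genes were called higher in 1 of 5 tested (19.0 to 25.4 against 14.8 to 15.4 CPM), and red cell genes in 6 of 6 tested (3290 to 8380 against 5 to 7.91 CPM). The limb mesenchyme list was called higher in 3 and lower in 2 of 8 genes. The part of these cell types in the levels of the feedback genes was not tested. Ectoderm markers summed to 55.6 CPM in central replicate 1 and 176 CPM in central replicate 2. As given above, 8 of the 10 feedback genes were higher in central replicate 2, against 49.4% of all tested genes, the exceptions being Spry1 and Spry2. Between the anterior libraries, where ectoderm markers stood at 10.6 to 10.9 CPM, 8 of the 10 were likewise higher in replicate 2, against 49.9%.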

How the data were processed

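The deposited table holds whole-number read counts per gene symbol for 4 libraries, not normalized by the authors. The submitters' processing notes name STAR 2.7.9a, HTSeq, DESeq2 and the mm10 build, without their roles. The annotation and strand setting are not given in the sources used here. Per the labels, libraries were sequenced as read pairs to about 25 M reads. Columns were matched to sample titles by population and number.

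The analysis used edgeR 4.0.16 (R 4.3.3) on every gene kept by filterByExpr, with TMM scaling, the quasi-likelihood F test (2 residual degrees of freedom), Benjamini-Hochberg adjustment over all 14610 tested genes and a threshold of 0.05. The SE of a log2 fold change is its absolute value over the square root of F, and 95% intervals use the fit's total degrees of freedom. FPKM values, computed here, divide CPM by the merged exon length in GENCODE M21, which uses the same assembly as mm10. Intervals cover the spread between libraries only. The script was tested on simulated counts. All 10 feedback genes are named. From the other pathway lists, each called gene of the ERK target list and the 2 called genes with the smallest p-values of each other list are named, and further genes are marked as chosen after their values were seen. A gene that met this rule is not reported here. The members and lists were chosen with earlier results of these data known. Alternatives used DESeq2 1.42.0, limma-voom (limma 3.58.1), other scalings, filters and thresholds, a replicate block, halved counts, and each library left out.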

Additional observations from a re-analysis of the deposited data

How the results depend on the processing

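Of the 10 feedback genes, 8 were called higher under every scaling, count filter, test, halving and gene removal that was run at the 0.05 threshold, with Dusp4 and Spred3 not called in each. At a threshold of 0.01, 7 were called (without Spred2), and in the test against a 1.5-fold change, 4. Over all genes the number called fell from 3351 to 1690 and 1035 under those stricter criteria. Among the fits that left out 1 library, in which the lone library is assumed to vary like the other group, between 6 and 8 of the 10 genes were called, and between 2009 and 3697 of all genes. The low end of each came without anterior replicate 2. Over those fits the Dusp4 log2 fold change ran from -0.02 (without central replicate 1) to 0.28. The share of calls that were higher in anterior cells was 46.5%, and 39.1% with upper-quartile factors. It was 42.7% at the threshold of 0.01 and 26.9% in the test against a 1.5-fold change.

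Replicate numbers occur in both populations, but no label ties same-numbered libraries to shared embryos. Replicate differences correlated across genes, which are not independent, at 0.0463 (Pearson) between the populations. With the replicate block, 3586 of all genes and the same 8 feedback genes were called. Further regulators of the pathway called higher numbered 1, and 3 with the DESeq2 Wald test and 2 with the replicate block. The cause was not tested.

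Summed FPKM depends on the length used. With the longest transcript, the sums in anterior and central cells were 239 and 100 for Dusp and 130 and 54.9 for Spry. They were 59.7 and 47.1 for Spred and 47.9 and 22.7 for Il17rd. Ratios of the anterior to the central mean changed little, at 2.38, 2.36, 1.27 and 2.11 in that order, against 2.36, 2.35, 1.29 and 2.11 with merged exons. The Spry1 share in central cells was then 23.5% and the Spry4 share in anterior cells 25.7%. With library totals alone the Spry sum in central cells was 54.8. The precision for Dusp4 and Spred3, which were not called, is that of the 95% intervals given with them.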

Other observations

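Over the 4 libraries, the genes outside the set whose pattern was nearest to the mean pattern of the 10 feedback genes were Txnrd1, Msn, Nxn, Rbpms2 and Cables1. Nearness was the Euclidean distance between log2 CPM deviations from each gene's mean, and it was 0.0684 for Txnrd1, 0.0731 for Msn, 0.0828 for Nxn, 0.0871 for Rbpms2 and 0.0953 for Cables1. Txnrd1 encodes a cytosolic thioredoxin reductase and Msn encodes moesin, a linker of actin to the membrane. The mean pattern of the feedback genes was 0.361 and 0.500 above the gene means in the anterior libraries and lay at -0.515 and -0.346 in the central ones. Among the feedback genes, Dusp5 lay nearest to their own mean pattern (0.171) and then Il17rd (0.231), whereas Spry1 and Spry4 lay farthest (1.16 each), above it in anterior cells, and Spred3 lay at 1.02. With 4 libraries, nearness is a description of these samples only.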
